A study of Mus musculus with 8 samples.

Results

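The TGF-beta and BMP signalling families were followed in sorted midbrain dopaminergic neurons of the mouse embryo. The members were the genes whose symbol in the annotated probe table named a BMP, GDF, TGF-beta or activin beta subunit, one of their receptors, a Smad or an Id gene. This gave 52 genes of the 24088 named genes on the array, carried by 56 probes of that table. For each gene the brightest of these probes stood for it. Of the 52 members, 45 were bright enough to be tested and 7 were not (Bmp15, Bmp4, Gdf2, Inhba, Inhbc, Bmpr1b and Tgfbr2).

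The samples were 4 rostral and 4 caudal pools of Gfp-positive cells and, as the comparison for every array, 1 common pool of Gfp-negative cells. All cells were taken at E14.5 from ventral midbrain of genotype Pitx3(gfp/+), in which 1 allele of Pitx3, a transcription factor gene that marks midbrain dopaminergic neurons, carries Gfp. The Gfp-negative cells came from the same embryos, so they too were heterozygous, and each Gfp-positive pool held 5 to 7 embryos from mixed litters. Cells were dissociated with papain and sorted on a Cytopeia Influx or a BD FACS Aria III, and which pool went through which sorter is not given. Each Gfp-positive pool was labelled with Cy3 and the reference with Cy5 on all 8 arrays, so the dyes were not swapped, and a dye effect would stay in the ratios. Values are log2 ratios, on which 1 unit is a 2-fold difference and a value above 0 means a higher signal in the Gfp-positive pool than in the reference.

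The ligands of this superfamily are secreted dimers that join a type II and a type I receptor kinase. The type I kinase phosphorylates a receptor-regulated Smad, Smad1, Smad5 or Smad9 after most BMPs and Smad2 or Smad3 after TGF-beta and activin, which enters the nucleus with Smad4. Smad6 and Smad7 damp the signal, and the Id genes, whose products hold back basic helix-loop-helix factors, are classical BMP targets. In the embryonic midbrain TGF-beta is known as a factor for the development and survival of dopaminergic neurons.

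The sort was checked with markers. All 12 dopaminergic markers were higher in Gfp-positive pools (median 3.64), and all 12 markers of radial glia and progenitors were lower (median -3.13). The summed signal of the 12 radial glia markers was 55096 to 68486 in rostral pools and 66258 to 76895 in caudal pools, against 639531 to 697897 in the reference channel. The markers of pericytes and mesenchyme were lower for 10 of 11 tested, and their sum was 5309 to 23548 in rostral pools and 4234 to 5536 in caudal pools. Rostral pool 2 stood apart on collagen and matrix genes of this list, with Col1a1 at 3.73, Lum at 2.60 and Col1a2 at 0.10, while the other pools were at -1.95 to -0.93, at -0.25 to 0.11 and at -4.31 to -2.98 for these genes. The counts and values that rest on this pool are given without it below. Not all other cell types were low. Of 11 macrophage and microglia markers tested, 1 was higher and 1 lower (median 0.18). The summed signal of the 12 listed was 48029 to 160164 in rostral pools and 42644 to 149814 in caudal pools. In the reference it was 76438 to 83023. Of 10 GABAergic markers tested 8 were lower, while Slc32a1 was higher (0.28) and Gad2 was not called (-0.09). The reference is a mixture of cell types, and fewer cells of a type and less RNA per cell cannot be told apart in these bulk pools. What part the radial glia in the reference play in the ratios below was not tested. By the scanner software's criterion for a signal well above background, 62.5% to 70.4% of probes passed for Gfp-positive RNA and 54.0% to 63.5% for the reference. The number of arrays limits the precision, and p-values reflect pool-to-pool variation only.

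The first comparison set all 8 Gfp-positive pools against the Gfp-negative reference. Among the 45 members tested, 17 were higher, 20 were lower and 8 were not called by limma at an adjusted p below 0.05. Over all 18657 genes tested 71.5% were called, 34.6% higher and 36.8% lower, so the number of called members on its own does not set the families apart. Changes of at least 2-fold were seen in 2 members that were higher (4.44%, against 3.37% of all genes) and 9 that were lower (20%, against 9.71%). All 8 ratios had 1 sign in 21 members (46.7%), against 52.3% of all genes. Without rostral pool 2 the members called were 17 higher and 17 lower, and the share of all genes called was 68.6%, against 71.5%. The median over the members was 0.06, and over all genes -0.0033. The 9 large falls were 4 Id genes, Smad3, Smad6, Tgfb2, Tgfb3 and Gdf10, while 7 of 8 BMP ligands tested were higher. Among these 7, Bmp3 and Bmp8b were bright enough to be tested only by their Gfp-positive signal, as was Acvr2a among the other members called higher. Bmp4 was outside this count, and a brighter probe of it was lower (-0.99).

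**Figure D1:**
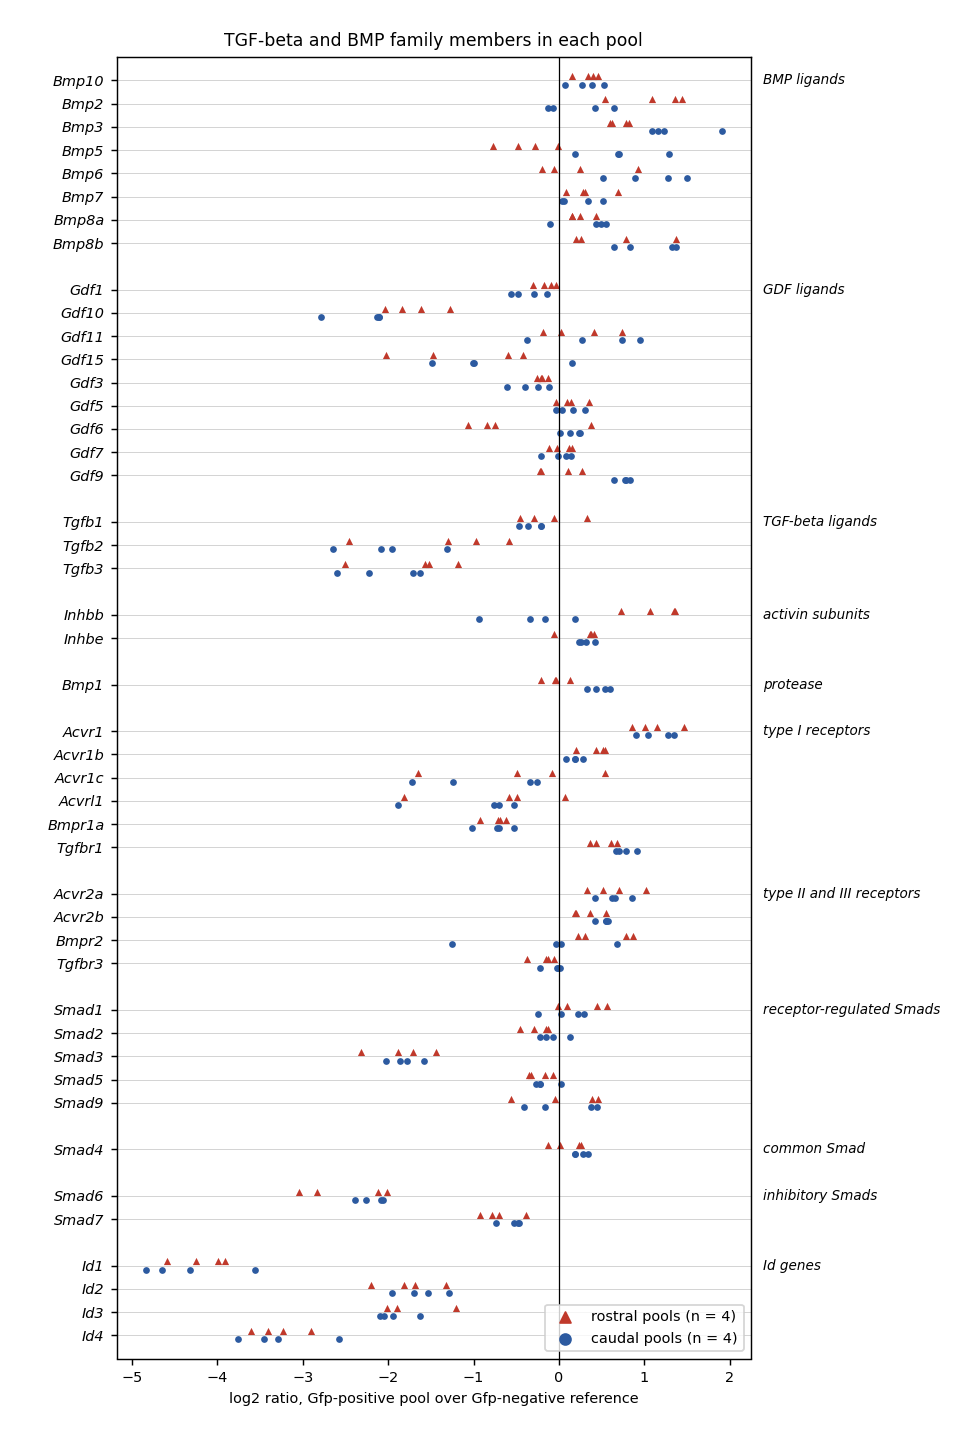
Log2 ratio of Gfp-positive pool over Gfp-negative reference (x axis) for each of the 45 members tested (y axis, grouped by role), with red triangles for the 4 rostral pools above blue circles for the 4 caudal pools. The Id genes, Smad3, Smad6, Tgfb3 and Gdf10 lie left of -1 in every pool with a value, and most BMP ligands lie right of 0.

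All 4 Id genes were lower in Gfp-positive cells, and Id1 had the lowest ratio of the members. Id1 was at -3.91, -4.25, -4.59 and -3.996 in rostral pools and at -4.84, -3.55, -4.33 and -4.65 in caudal pools. This is a 19.2-fold lower signal (mean -4.27, SE 0.13, limma adjusted p = 2.46e-09), and the parts overlapped. Id4, an Id gene known from neural progenitors, was at -2.90, -3.23, -3.61 and -3.41 in rostral pools and at -3.76, -2.57, -3.46 and -3.29 in caudal pools (mean -3.28, SE 0.12, 9.70-fold lower). Id2 was at -1.32, -1.81, -2.20 and -1.68 in rostral pools and at -1.95, -1.53, -1.29 and -1.70 in caudal pools (mean -1.69, SE 0.09). Id3 had a value on 7 arrays, since its spot on the array of rostral pool 3 was marked as an outlier and left out. It was at -1.20, -1.89 and -2.01 in the other rostral pools and at -2.10, -2.05, -1.62 and -1.95 in caudal pools (mean -1.82, SE 0.11). The Id genes thus fell into a pair with a larger and a pair with a smaller difference, and in none of them did rostral and caudal pools separate. Their spread over pools was small beside the difference, and every Id gene kept its call in all 16 alternative settings tried.

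Of the inhibitory Smads, which BMP and TGF-beta signals are known to induce, Smad6 was at -2.12, -2.84, -3.04 and -2.01 in rostral pools and at -2.06, -2.39, -2.26 and -2.08 in caudal pools (mean -2.35, SE 0.12, adjusted p = 7.79e-08). Its probe exceeded background clearly in 2 of 4 rostral pools, in 4 of 4 caudal pools and, for the reference, on all 8 arrays. With Feature Extraction processed signals, to which no offset is added, the ratio was -3.89. Smad7 was at -0.92 to -0.39 in rostral pools and -0.74 to -0.47 in caudal pools (mean -0.63, SE 0.07), and -1.05 in the processed signals. Both inhibitory Smads were thus below the reference in every pool.

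Because the Id genes and Smad6 were low together, their promoters are shown, from RefSeq on GRCm38.p6, each from 250 bases before to 4 bases after the annotated start. The table holds a promoter for Id2 on the minus strand of chr12:25096089-25096342, for Id3 on the plus strand of chr4:136143572-136143825, for Id4 on the plus strand of chr13:48260866-48261119 and for Smad6 on the minus strand of chr9:64022056-64022309. Id1 is named only. Capitals mark GGCGCC, a GC-rich sequence known to be bound by Smads of the BMP branch, and GTCTAGAC, the palindromic Smad binding element, which was added to the search after the Smad6 sequence had been read.
Id2: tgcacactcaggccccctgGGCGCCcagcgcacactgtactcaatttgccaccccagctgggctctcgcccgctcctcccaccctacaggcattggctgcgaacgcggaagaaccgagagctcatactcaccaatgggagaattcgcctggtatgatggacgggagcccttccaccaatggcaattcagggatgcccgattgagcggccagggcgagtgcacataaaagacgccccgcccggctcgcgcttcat
Id4: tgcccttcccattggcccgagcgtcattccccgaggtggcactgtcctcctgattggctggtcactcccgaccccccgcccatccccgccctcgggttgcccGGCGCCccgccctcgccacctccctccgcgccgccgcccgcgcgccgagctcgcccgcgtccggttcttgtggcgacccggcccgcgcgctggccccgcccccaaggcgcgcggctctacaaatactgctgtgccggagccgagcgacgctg
Id3: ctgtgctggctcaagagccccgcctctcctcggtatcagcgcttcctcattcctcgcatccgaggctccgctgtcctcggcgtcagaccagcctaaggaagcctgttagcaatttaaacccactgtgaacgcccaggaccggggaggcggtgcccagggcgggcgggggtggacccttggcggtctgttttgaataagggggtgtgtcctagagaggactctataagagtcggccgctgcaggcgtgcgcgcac
Smad6: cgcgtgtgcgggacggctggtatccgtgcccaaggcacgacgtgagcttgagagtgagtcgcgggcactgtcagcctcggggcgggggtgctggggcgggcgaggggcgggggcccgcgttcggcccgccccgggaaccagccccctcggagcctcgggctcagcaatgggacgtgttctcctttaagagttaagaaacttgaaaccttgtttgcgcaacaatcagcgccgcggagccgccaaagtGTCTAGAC
Both motifs read the same on both strands and do not overlap each other here. GGCGCC started 231 bases before the start of Id2 and 148 bases before that of Id4, and the Smad6 promoter held GTCTAGAC across its start, from 4 bases before it. The Id3 window held neither. Over all 32851 promoters of the same length, 9.68% held GGCGCC and 0.17% held GTCTAGAC. Of the members, 37 had an entry, and 8 of their 45 promoters held GGCGCC (17.8%). The only member promoter with GTCTAGAC (1 of 45, 2.22%) was that of Smad6, whose sequence prompted the search. That share therefore cannot be set against the share over all promoters. The window also ends on the last base of this motif in Smad6. A match is only a description of these letters, and no binding was measured.

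Among the receptor-regulated Smads, Smad3 stood apart. It was at -1.71, -1.89, -2.32 and -1.44 in rostral pools and at -1.86, -1.78, -1.58 and -2.02 in caudal pools (mean -1.82, SE 0.09, 3.54-fold lower, adjusted p = 5.26e-08). A second Smad3 probe was at -0.11 but was well above background on fewer than 4 arrays in either channel, and the mean over both probes was -0.97. Smad2, which shares the TGF-beta and activin branch with Smad3, was at -0.17 (SE 0.06, adjusted p = 0.0219). That small fall was lost with Feature Extraction processed signals (-0.09, adjusted p = 0.188) and when rostral pool 2 (adjusted p = 0.0603), caudal pool 1 (0.0554) or caudal pool 3 (0.0625) was left out. The BMP-branch Smads had small values. Smad5 was at -0.20 (SE 0.06, adjusted p = 0.0135), Smad1 at 0.17 (adjusted p = 0.12) and Smad9 at 0.06 (adjusted p = 0.676), the last with a reference not well above background on any array. Smad4, the partner shared by all branches, was at 0.17 (SE 0.05, adjusted p = 0.0131). Smad1 was called at 0.32 with the processed signals, but was at -0.14 with the mean over its probes (adjusted p = 0.209), and one of its other probes was called lower. For Smad1, Smad4 and Smad5 the direction depended on the probe, as described below.

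The TGF-beta ligands were lower for 3 of 3. Tgfb3 was at -2.51, -1.57, -1.53 and -1.18 in rostral pools and at -1.71, -1.63, -2.23 and -2.60 in caudal pools (mean -1.87, SE 0.15, adjusted p = 2.62e-06). Tgfb2 was at -1.30, -0.59, -0.97 and -2.46 in rostral pools and at -2.09, -1.96, -1.31 and -2.65 in caudal pools (mean -1.67, SE 0.20, adjusted p = 4.46e-05). Both were below 0 in all 8 pools, with rostral and caudal pools overlapping. Tgfb1 was at -0.46 to 0.32 in rostral pools and -0.46 to -0.21 in caudal pools (mean -0.22, SE 0.09, adjusted p = 0.0455). This fall lost its call when any pool but rostral pool 1 was left out (adjusted p = 0.0594 to 0.12). 

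The BMP ligands went the other way. Bmp3, which is known to hold back other BMPs in bone, was at 0.60, 0.62, 0.82 and 0.79 in rostral pools and at 1.23, 1.16, 1.10 and 1.91 in caudal pools (mean 1.03, SE 0.09, adjusted p = 5.13e-06). Its reference signal was not well above background on any array, so 2.04-fold is a bound on the mean rise over the 8 pools. All 4 rostral pools lay below that mean and all 4 caudal pools above it. Such a bound sets the mean of the brighter group against the higher of the lowest signal measured above background and the probe's own signal, per channel, and is open to dye bias. It leaves out the spread over pools, so it is not a confidence limit. With Feature Extraction processed signals Bmp3 was at 2.39. Bmp8b was at 0.85 (SE 0.14), Bmp2 at 0.66 (SE 0.12), Bmp6 at 0.64 (SE 0.14), Bmp10 at 0.33 (SE 0.07), Bmp8a at 0.30 (SE 0.09) and Bmp7 at 0.29 (SE 0.08), and these 6 also rose. Bmp5 was at 0.17 (adjusted p = 0.225), with the parts on opposite sides of 0, as described below. In the processed signals Bmp8b was larger at 1.64 and Bmp6 at 1.36, while Bmp5 was smaller at 0.087. The reference signal of Bmp8b was well above background on 3 of 8 arrays. Bmp8b, like Bmp3, was thus tested only through its Gfp-positive signal. RefSeq places Bmp8a over Oxct2a and Bmp8b over Oxct2b, and Bmp6 over Txndc5, and whether signal of those genes reached the probes was not tested. 

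The GDF ligands were mixed, with 4 lower, 1 higher and 4 not called. Gdf10, a close relative of Bmp3, was at -1.28, -1.62, -1.84 and -2.04 in rostral pools and at -2.14, -2.11, -2.11 and -2.79 in caudal pools (mean -1.99, SE 0.11, adjusted p = 1.28e-07). It was -2.98 in the processed signals. Gdf10 and Bmp3 thus lay on opposite sides of the reference. Gdf15, known as a stress-responsive cytokine, was at -0.42, -0.60, -1.48 and -2.02 in rostral pools and at -0.9997, -1.48, -1.01 and 0.15 in caudal pools (mean -0.98, SE 0.21, adjusted p = 0.00211). It was the widest spread of the called GDF ligands, and 1 caudal pool was above 0. Gdf3 was at -0.27 (SE 0.07) and Gdf1 at -0.26 (SE 0.05), and Gdf9 was higher at 0.37 (SE 0.06). The mean over both Gdf3 probes was -0.03 (adjusted p = 0.683). RefSeq places Gdf1 over Cers1 and Upf1, and Gdf9 over Uqcrq, and whether the probes read those genes was not tested. Gdf11 (0.32), Gdf5 (0.13), Gdf7 (0.02) and Gdf6 (-0.21) were not called. With the processed signals Gdf11 (0.52), Gdf5 (0.37) and Gdf7 (0.42) were called. Gdf6 was called without rostral pool 1 (-0.36, adjusted p = 0.000953), and Gdf11 without caudal pool 1 (0.45, adjusted p = 0.0145).

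The activin beta subunits with enough signal were both higher. Inhbb, the subunit of activin B, averaged 0.41 (SE 0.11) over all pools, but its parts lay apart, as described below. Inhbe was at 0.29 (SE 0.07). Inhba exceeded background clearly in 1 of 8 Gfp-positive pools and on 3 arrays for the reference, and Inhbc in 1 pool and on 0 arrays. Bmp1, which despite its name is a metalloprotease that cleaves procollagens and the BMP antagonist chordin, was at 0.22 (SE 0.04, adjusted p = 0.00116) by its brightest probe.

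The type I receptors split evenly. Of 6 type I receptors tested 3 were higher and 3 lower. Acvr1, a type I receptor for BMPs, was at 1.47, 1.01, 0.86 and 1.15 in rostral pools and at 0.90, 1.35, 1.28 and 1.04 in caudal pools (mean 1.13, SE 0.09, 2.19-fold higher, adjusted p = 1.46e-06). All 8 pools were above 0, with the parts overlapping. A brighter second Acvr1 probe gave 1.01 (adjusted p = 1.3e-07). RefSeq places Acvr1 over Upp2, and whether signal of that gene reached the probes was not tested. Tgfbr1, the type I receptor of TGF-beta, was at 0.64 (SE 0.04) and Acvr1b, that of activin, at 0.30 (SE 0.04). Bmpr1a, another BMP type I receptor, was lower at -0.92 to -0.62 in rostral pools and -1.02 to -0.53 in caudal pools (mean -0.74, SE 0.06, adjusted p = 1.45e-06). Thus Acvr1 and Bmpr1a, which both serve BMPs, differed from the reference in opposite directions in all 8 pools. Acvrl1, known from endothelial cells, was at -0.84 (SE 0.21). Of 11 endothelial markers tested, 10 were lower (median -1.62), with a summed signal of 7749 to 12841 in rostral and 8620 to 10982 in caudal pools against 31811 to 35949 in the reference, and their part in the Acvrl1 value was not tested. Acvr1c, a receptor for Nodal and some activins, was at -0.66 (SE 0.24, adjusted p = 0.0307). It lost its call with the processed signals (-1.46, adjusted p = 0.068) and without rostral pool 3, rostral pool 4, caudal pool 2 or caudal pool 4 (adjusted p = 0.0609 to 0.0847).

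Of the type II and III receptors, Acvr2a and Acvr2b, both for activins and BMPs, were higher. Acvr2b was at 0.43 (SE 0.04) and Acvr2a at 0.64 (SE 0.08). The reference signal of this Acvr2a probe was not well above background on any array, so Acvr2a was tested only through its Gfp-positive signal. By this probe alone the bound on the mean rise was 1.54-fold, with a ratio of 2.38 in the processed signals. A brighter second probe of Acvr2a, well above background on all 8 arrays in both channels, gave a smaller ratio of 0.36 (adjusted p = 0.000521), so the bound does not hold for the gene. RefSeq places Acvr2a over Orc4, whose part in these values was not tested. Bmpr2 was at 0.20 (SE 0.18, adjusted p = 0.347). It was called without caudal pool 2 (0.38, adjusted p = 0.0223), the pool in which it was at -1.25. Tgfbr3, the TGF-beta co-receptor betaglycan, was at -0.12 (SE 0.04, adjusted p = 0.0341). This was not called without rostral pool 2 (adjusted p = 0.0573), rostral pool 3 (0.0808), caudal pool 2 (0.0889) or caudal pool 3 (0.0529), nor without the intensity trend (0.052).

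The second comparison asked which members differ between rostral and caudal Gfp-positive pools. By limma 4 of 45 members were called, Inhbb higher in rostral pools and Bmp5, Gdf9 and Bmp1 lower. That is 8.89% of the members, against 6.21% of the 18193 genes tested. Without rostral pool 2 these 4 members kept their calls (Inhbb 1.46, Bmp5 -1.23, Gdf9 -0.81 and Bmp1 -0.52) and Bmp6 was called too. Without that pool 5.07% of all genes were called. Over all genes 3.46% were called higher and 2.75% lower, and 0.989% were higher and 0.682% lower by at least 2-fold. The parts did not overlap in 6 members (13.3%), against 12.5% of all genes. The 41 members that were not called included all tested receptors, Smads and Id genes, and in 29 of them the 95% interval of the difference stayed within 1 log2 unit of 0.

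**Figure D2:**
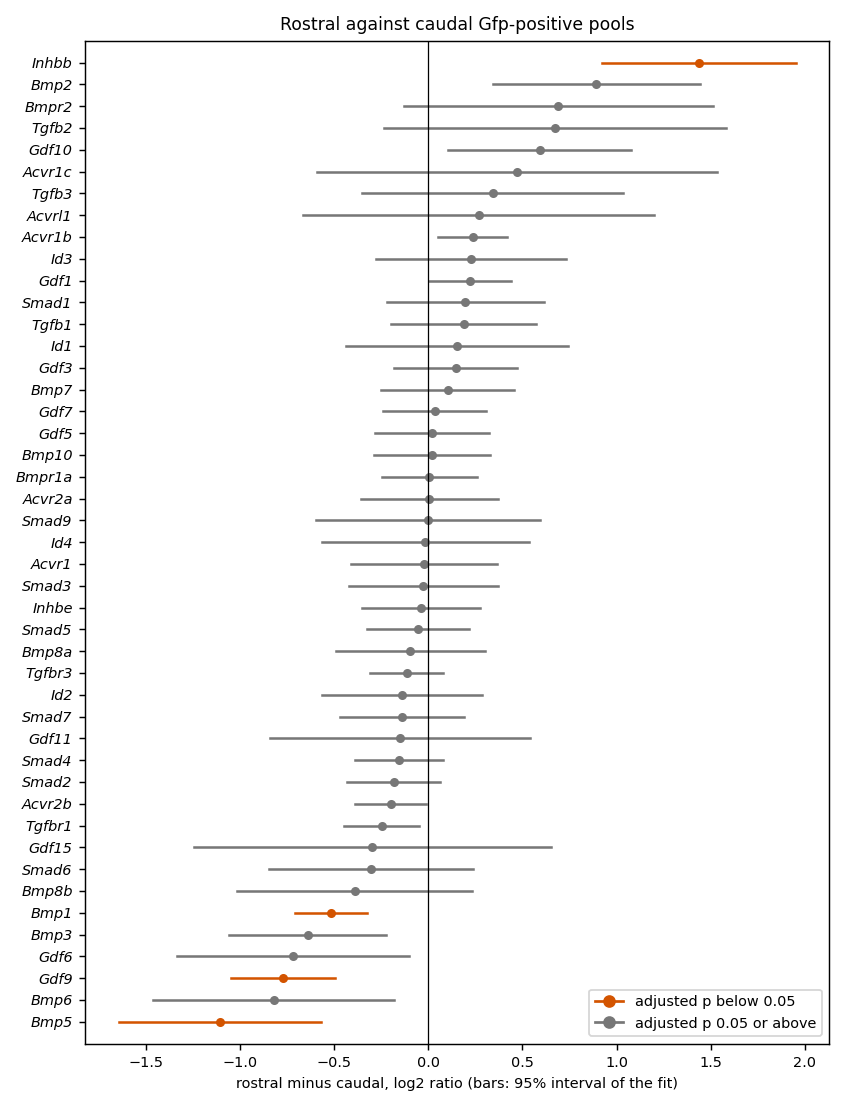
Difference between rostral and caudal pools in log2 ratio (x axis, point with the 95% interval of the fit) for each of the 45 members tested (y axis). Orange marks Inhbb (1.44), Bmp5 (-1.10), Gdf9 (-0.77) and Bmp1 (-0.51), whose adjusted p was below 0.05.

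Inhbb had the largest difference. It was at 0.73, 1.07, 1.35 and 1.36 in rostral pools and at -0.93, 0.19, -0.16 and -0.34 in caudal pools. All rostral pools were thus above the reference and above all caudal pools, of which 3 lay below it. The difference was 1.44 (SE 0.23, 95% interval 0.92 to 1.95, 2.71-fold, adjusted p = 0.00681). It was 1.27 within the arrays of the first row of the slide and 1.60 within those of the second, and Inhbb was called with each pool left out in turn (1.23 to 1.60). The probe was well above background on every array in both channels.

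Bmp5 was the member most lower in rostral pools. It was at -0.77, -0.01, -0.48 and -0.28 in rostral pools and at 1.29, 0.70, 0.19 and 0.71 in caudal pools, so the parts did not overlap and lay on opposite sides of 0. The difference was -1.10 (SE 0.24, 95% interval -1.64 to -0.57, adjusted p = 0.0251). Its signal was well above background in 1 of 4 rostral pools, in 4 of 4 caudal pools and, for the reference, on 1 array of 8. Bmp5 thus passed the filter for this test through the caudal pools, where it was higher. With no filter on dim probes it was still called (limma adjusted p = 0.0294). In the processed signals the difference was -3.17 (adjusted p = 0.0401), so its size is not fixed by these arrays. The direction held with each pool left out, but the adjusted p was 0.0528 to 0.0659 without rostral pool 1, 3 or 4 or caudal pool 1, 2 or 4. Within the rows of the slide it was -1.38 and -0.83.

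Gdf9, a ligand best known from the oocyte, was at 0.28, 0.10, -0.22 and -0.21 in rostral pools and at 0.65, 0.78, 0.78 and 0.83 in caudal pools. The difference was -0.77 (SE 0.12, adjusted p = 0.00688), with caudal pools close together and all rostral pools below them. It was -0.52 within the first slide row and -1.02 within the second. The locus overlaps Uqcrq, a gene of the respiratory chain, whose part in the value was not tested. Bmp1 was at 0.13, -0.03, -0.05 and -0.21 in rostral pools and at 0.59, 0.33, 0.43 and 0.54 in caudal pools. The difference was -0.51 (SE 0.09, adjusted p = 0.008), and -0.41 and -0.61 within the rows. The other Bmp1 probes did not show it, at -0.40 ± 0.13 and -0.61 ± 0.32 in rostral pools and -0.36 ± 0.11 and -0.44 ± 0.30 in caudal pools (SD, n = 4 each, adjusted p = 0.876 and 0.753). With the mean over the 3 probes the difference was -0.24 (adjusted p = 0.132).

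**Figure D3:**
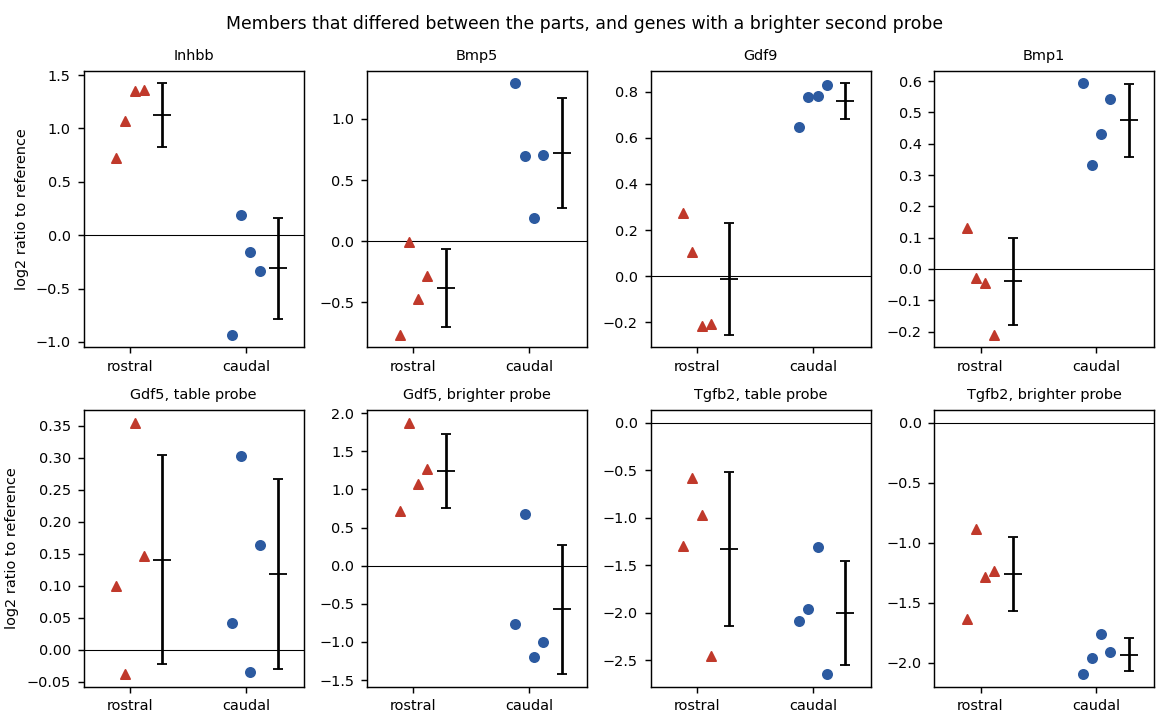
Log2 ratio to the reference (y axis, own scale in each panel) in the 4 rostral (red triangles) and 4 caudal pools (blue circles) with mean and SD beside them, for Inhbb, Bmp5, Gdf9 and Bmp1 and for both probes of Gdf5 and Tgfb2. In the 4 upper panels, of genes chosen by their call on these values, the parts do not overlap. In the lower panels they overlap for the table probes, while the brighter Gdf5 and Tgfb2 probes place all rostral pools above all caudal pools.

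Several ligands came close to the threshold. Bmp2 was at 1.44, 1.36, 0.54 and 1.09 in rostral pools and at -0.13, -0.07, 0.42 and 0.64 in caudal pools (difference 0.89, SE 0.24, adjusted p = 0.0657). Rostral pool 3 was the only rostral pool below a caudal one, and without it Bmp2 was called (1.08, adjusted p = 0.0288). The difference was 1.502 within the first slide row and 0.28 within the second. Bmp3 did not overlap between the parts (difference -0.64, SE 0.19, adjusted p = 0.0826), nor did Gdf10 (0.59, SE 0.22, adjusted p = 0.168). Bmp6 (-0.82, adjusted p = 0.142) was called without rostral pool 2 (-1.05, adjusted p = 0.0484), Gdf6 (-0.72, adjusted p = 0.184) without rostral pool 1 (-1.03, adjusted p = 0.0036), and Acvr1b (0.24, adjusted p = 0.142) without rostral pool 4 (0.31, adjusted p = 0.0344). Gdf6 was well above background in 1 of 4 rostral and 4 of 4 caudal pools. Among the receptors the widest interval was that of Acvr1c, from -0.59 to 1.53. For Id1 the interval was -0.44 to 0.74, for Id4 -0.56 to 0.53, for Smad3 -0.42 to 0.37 and for Bmpr1a -0.25 to 0.26. A difference anywhere within such an interval is compatible with the 4 pools a part, so an uncalled gene is not shown to be equal in both parts.

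Markers of dopaminergic and of other neurons also differed between the parts. Of 10 tested GABAergic markers 3 were higher in rostral pools, among them Dlx2 (3.13), and 2 were lower, among them Tal2 (-1.79). Of 6 glutamatergic and red nucleus markers Tbr1 was higher (1.84) and Pou4f2 (-2.78) and Nhlh2 (-0.97) lower, and the serotonergic marker Fev was lower (-0.82). Of the 12 dopaminergic markers Aldh1a1 was higher (0.57) and En1 (-0.78) and Slc18a2 (-0.56) lower. The 11 GABAergic markers summed to 154599 to 251887 in rostral pools and 110935 to 169629 in caudal pools. Of 11 markers of macrophages and microglia Mrc1 was called (2.07). What part such cells play in the differences of Inhbb, Bmp5, Gdf9 and Bmp1 was not tested.

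A second question was whether other probes of a member gave the same value. In 18 members 20 other probes were present, 9 of them brighter than the table probe and named for the gene only by their accession. For Tgfb2 the brighter probe gave -1.63, -0.89, -1.28 and -1.24 in rostral pools and -2.09, -1.96, -1.76 and -1.91 in caudal pools. These pools were closer together than with the table probe, at a like mean ratio of -1.60, and the parts did not overlap. The difference was 0.67 by both probes, with an adjusted p of 0.0305 by the brighter and 0.443 by the table probe. The brighter Tgfb2 probe lost its call with 6 of the 8 pools left out in turn (adjusted p = 0.054 to 0.0878), all but rostral pool 1 and caudal pool 3.

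Gdf5, a ligand known to promote the survival of dopaminergic neurons in rat cultures, had the widest gap between its probes in the difference between the parts. The brighter probe was at 0.72, 1.88, 1.07 and 1.27 in rostral pools and at -0.77, 0.67, -1.20 and -0.997 in caudal pools. The table probe lay between -0.04 and 0.36 in all pools. The difference between the parts was 1.81 (adjusted p = 0.0294) by the brighter probe, against 0.02 (adjusted p = 0.966) by the table probe. The brighter Gdf5 probe kept its call without rostral pool 1 or caudal pool 2 and lost it without each of the other pools (adjusted p = 0.0608 to 0.0843).

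**Figure D4:**
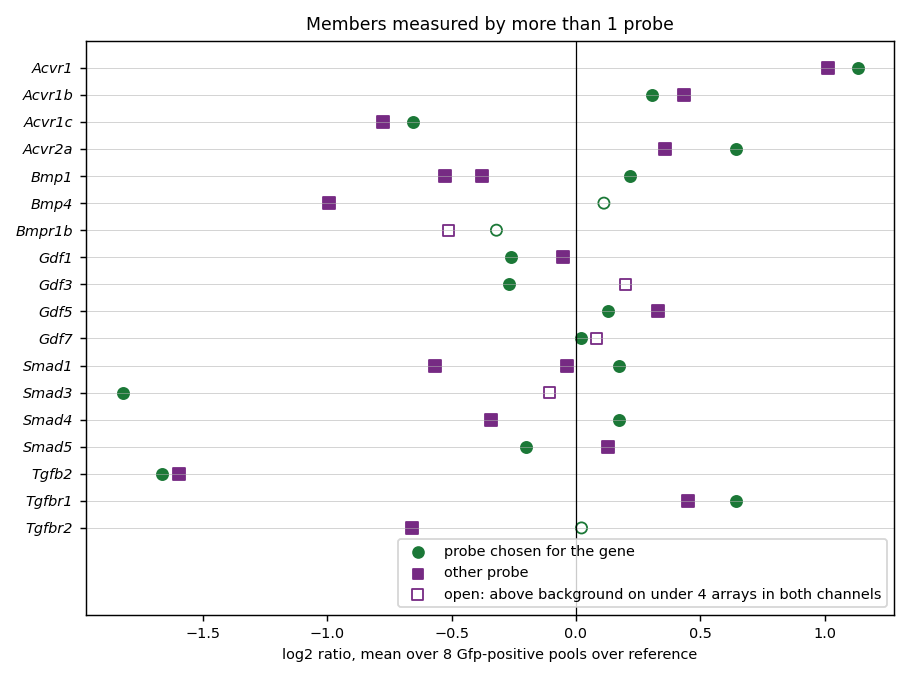
Mean log2 ratio over the 8 Gfp-positive pools (x axis) by each probe of the 18 members with more than 1 probe (y axis). Green circles are the probes that stand for the gene and purple squares the others, open where the probe was well above background on fewer than 4 arrays in both channels. Bmp1, Smad1, Smad4 and Smad5 have filled probes on both sides of 0.

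Among members that could not be tested by the table probe, a brighter probe of Bmp4 was lower at -0.99 (adjusted p = 0.00024), unlike the 7 BMP ligands that rose. A brighter probe of Tgfbr2, the type II receptor of TGF-beta, was at -0.66 (adjusted p = 0.00358). The table probe of Bmp4 was not well above background in any pool, so only the brighter probe measured this ligand. For Smad4 the brighter probe gave -0.34 (adjusted p = 4.88e-06), against 0.17 by the table probe, and for Smad5 it gave 0.13 (adjusted p = 0.0227), against -0.20. The Smad5 table probe was much the dimmer, with a mean log2 signal of 7.16 against 14.97. The other Bmp1 probes were at -0.38 and -0.53, against 0.22. For Smad1 the other probes were at -0.57 (adjusted p = 0.0424) and -0.04 (adjusted p = 0.766), against 0.17. The direction of Bmp1, Smad1, Smad4 and Smad5 against the reference was thus not fixed by these probes, and the probe positions in the transcripts were not used here.

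The remaining genes of the pathway were taken from a list of 73 genes. Of 64 tested, 17 were higher and 28 lower in Gfp-positive pools (median -0.07). The share called was 70.3%, against 71.5% of all genes. At least 2-fold, 3 of the 64 were higher and 14 lower, while over all genes 3.37% were higher and 9.71% lower by as much. The secreted antagonists were lower for 8 of 15 and higher for 3 (73.3% called), and the genes of ligand storage and activation were lower for 8 of 12 and higher for 3 (91.7% called). Over all genes 36.8% were lower and 34.6% higher. Lowest by adjusted p were Fstl1, a follistatin-like secreted protein (-2.87), the Smad co-repressor genes Tgif1 (-2.65) and Tgif2 (-2.02), the BMP antagonist genes Nbl1 (-1.70) and Chrdl1 (-2.05), and Ltbp1, which tethers latent TGF-beta (-1.82). With the mean over probes Tgif2 was at -0.71 and Chrdl1 at -1.02. On the high side were Pcsk6, a convertase that cleaves ligand precursors (2.33), Grem1, a secreted BMP antagonist (2.06), the follistatin-domain gene Tmeff2 (1.43), the RGM receptor gene Neo1 (0.66), the Smad anchor gene Zfyve16 (0.64) and the BMP co-receptor gene Rgmb (0.53). The list thus held secreted BMP antagonists at both ends.

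Between the parts, 5 of 63 tested genes of the list were higher in rostral pools and 7 lower, 19% in all, against 6.21% of all genes. The list was chosen with earlier results of these data known, so these shares are no test of the list. Thbs1, whose product can activate latent TGF-beta, was at 1.07, 1.73, 2.28 and 1.89 in rostral pools and at -1.04, -0.64, -0.60 and -0.44 in caudal pools (difference 2.42, SE 0.25, adjusted p = 0.00124). Inha, the inhibin alpha subunit that pairs with the product of Inhbb, was at 0.58, 0.43, 0.61 and 0.40 in rostral pools and at -0.07, -0.14, -0.09 and -0.02 in caudal pools (difference 0.58, SE 0.08, adjusted p = 0.00301). Neither gene overlapped between the parts. Msx2, a BMP target, was 0.71 higher, the activin-binding Fst 1.08 higher and the BMP antagonist gene Sostdc1 1.59 higher. No caudal pool had a Sostdc1 signal well above background, so this gene was tested between the parts only through its rostral signal. With no filter on dim probes its call was lost (limma adjusted p = 0.0567). By the probe used, the mean Sostdc1 signal in rostral pools was 2.92-fold above the bound for caudal pools, which leaves out the spread over pools. The difference was 3.62 in the processed signals. The mean over the Sostdc1 probes gave a smaller difference of 0.89 (adjusted p = 0.203), so the bound is that of the probe and not of the gene. Of 10 pericyte and mesenchyme markers tested between the parts 1 was higher in rostral pools, Foxd1 (1.11). Rostral pool 2, which stood apart on collagen genes, was also the highest pool for Fst (-0.54), and without it Fst differed by 0.83 (adjusted p = 0.045), Thbs1 by 2.43, Inha by 0.61 and Sostdc1 by 1.62 (adjusted p = 0.088). The part of mesenchymal cells in the other values was not tested. Inhbb and Inha were thus both higher in rostral pools, as was Fst.

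Lower in rostral pools were Nbl1 (-1.45), Pcsk6 (-1.10), the latent TGF-beta binding gene Ltbp3 (-1.19), the BMP-binding Twsg1 (-0.73), Msx1 (-0.92) and the ubiquitin ligase gene Nedd4l (-0.42). Nbl1 was at -2.56, -2.35, -2.58 and -2.20 in rostral pools and at -0.60, -1.19, -1.23 and -0.88 in caudal pools (SE 0.15, adjusted p = 0.00124). Pcsk6 was at 2.01, 2.11, 1.31 and 1.69 in rostral pools and at 2.96, 2.87, 2.80 and 2.91 in caudal pools, so it was above the reference in both parts. Msx1 and Msx2, 2 homeobox genes known as BMP targets, differed in opposite directions. The calls of Fst (adjusted p = 0.0508 to 0.0948), Sostdc1 (0.0583 to 0.111) and Nedd4l (0.05004 to 0.0899) were each lost with 6 of the 8 pools left out in turn. With the mean over probes Nedd4l was at -0.23 (adjusted p = 0.118).

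**Figure D5:**
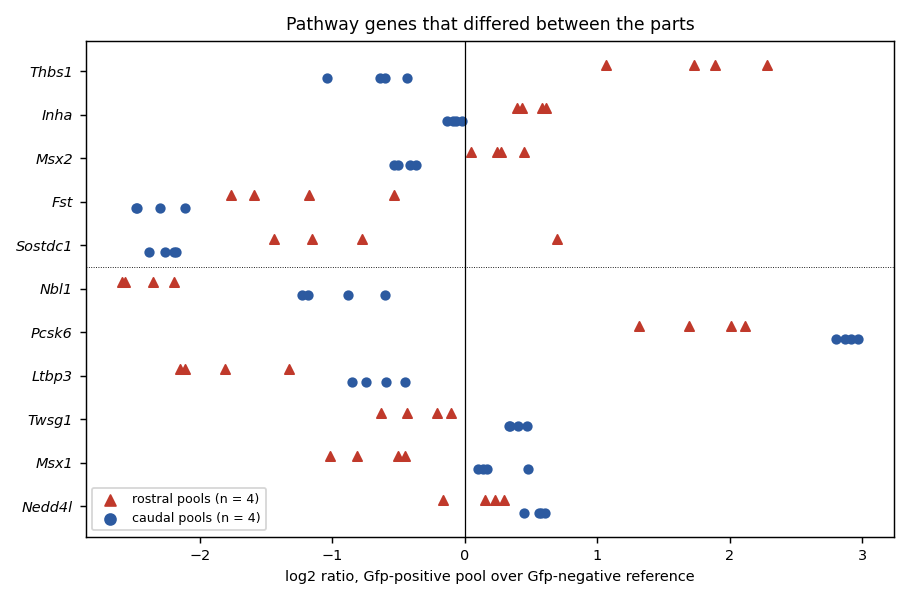
Log2 ratio of Gfp-positive pool over reference (x axis) for the 5 genes of the pathway list called higher in rostral pools (above the dotted line) and the 6 called lower with the smallest adjusted p (below it), with rostral pools as red triangles above caudal pools as blue circles (n = 4 each). The parts do not overlap in any of these 11 genes, which were chosen by their call on the same values (over all genes tested, 12.5% do not overlap). Thbs1 and Nbl1 are the farthest apart by adjusted p.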

How the data were processed

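Per the file headers, the authors scanned each array and extracted spot intensities with Feature Extraction 10.7.3.1. The main values start from the deposited median intensities of spot and local background, which are not normalized. The deposited processed intensities were background-subtracted and dye-normalized by that software, per the file headers. The submitters' processing notes also name RMA, with no role given. Flags of the deposited files mark spots that are well above background, saturated or outliers. A deposited table gives probe symbols. Its 8 value columns match no sample label and were not used. All 8 arrays share 1 slide and 1 scan.

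From these, background was corrected with normexp (offset 50), loess was run within each array (control and outlier spots at weight 0), and log2 of green over red was taken in R 4.3.3 with limma 3.58.1. These log2 ratios were computed here from the deposited intensities. A gene was tested where its probe was well above background on at least 4 of 8 arrays, in either channel against the reference and in the sample channel between the parts. Tests used lmFit and eBayes with an intensity trend, 2-sided, adjusted by Benjamini-Hochberg over all named genes tested and called below 0.05. As the reference is 1 sample, the test does not hold its spread. Of 55681 probes, 27509 were named by accession through a RefSeq table (GRCm38.p6) and 4124 by the symbol of the annotated table. Hfe2 and Ctgf were read as Hjv and Ccn2.

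Groups came from the sample titles. Members, lists and tests were chosen with earlier results of these data known. Every member is named, by the rule used for naming, with values of each pool for members called between the parts and for the 12 called members farthest from the reference. Of the pathway list, up to 6 called genes per direction and comparison are named, by smallest adjusted p. Brighter probes of single members, Bmp2, the matrix markers of rostral pool 2 and the not overlapping genes outside that rule were chosen after their values were seen. Alternatives were processed signals, an offset of 16, no filter on dim probes, the mean over probes, no trend, the slide row or replicate number as a block, each slide row alone, each pool left out and, added after the data were seen, the brightest of all probes. The fit was tested on simulated data.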

Additional observations from a re-analysis of the deposited data

Results flagged for a closer look

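In 6 of 89 sets of 4 pools of a member, 1 pool lay far from the other 3, and chance gives about 5% of such sets. Caudal pool 4 stood apart for Bmp3 (1.91, the next pool at 1.23), Gdf10 (-2.79, the next at -2.14) and Smad5 (0.026, the next at -0.22). Rostral pool 2 stood apart for Inhbe (-0.062, the next at 0.36), caudal pool 1 for Acvr2b (0.42, the next at 0.55) and caudal pool 2 for Tgfbr3 (-0.22, the next at -0.02).

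By limma the ratio to the reference differed between the parts for 4 members. Rostral minus caudal was 1.44 for Inhbb, -1.10 for Bmp5, -0.77 for Gdf9 and -0.51 for Bmp1. In each, all 4 pools of one part lay beyond all 4 of the other. Over all genes tested the parts did not overlap in 12.5%, and these 4 were picked by their call on the same values.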

How the results depend on the processing

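Among members called against the reference, the direction turned in 3, each time with another choice of probe. The mean over probes gave -0.23 for Bmp1 and -0.084 for Smad4, and the brightest of all probes gave -0.34 for Smad4 and 0.13 for Smad5. Counts of members against the reference were 17 to 18 higher and 17 to 21 lower with 1 pool left out. The share of all genes called was then 68% to 69.4%, against 71.5%. Between the parts, the number of members higher in rostral pools was 1 to 2 with 1 pool left out, 0 within the first slide row and 3 with the brightest of all probes, against 1. The number lower was 2 to 4 with 1 pool left out, 0 within the first row and 1 within the second, against 3. Each row holds fewer pools (2 of each part). Over all genes the share called between the parts, 6.21%, became 0 within the first row and 1.01% within the second. It became 3.92% to 5.46% with 1 pool left out, 4.53% without the intensity trend and 3.95% with the replicate number as a block. In the pathway list the number higher, 5, became 3 without the intensity trend, 3 with the replicate number as a block, 3 to 5 with 1 pool left out, 0 within the first row and 1 within the second. The number lower, 7, became 4 with that block, 5 to 7 with 1 pool left out, 0 within the first row and 2 within the second. The replicate numbers did not pair the pools (correlation of deviations -0.06 to 0.02). With the replicate block Bmp5 had an adjusted p of 0.067 (-1.10), Smad2 (0.0551), Tgfb1 (0.0543) and Tgfbr3 (0.0514) lost their call against the reference, and Inhbb, Gdf9 and Bmp1 kept theirs between the parts. The cause of these changes was not tested. Of the members not called with the settings used in the report, 3 against the reference and 23 between the parts changed sign under an alternative. These include Gdf7 and Smad1 against the reference and Gdf5 between the parts, each called under 1 alternative. Signal limits the dim genes. For Bmp5 in rostral pools and for the table probes of Bmp3, Bmp8b, Acvr2a and Smad9 in the reference it was mostly or always not well above background.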
